A study of Mus musculus with 24 samples.

Results

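A set of 7 secreted matrix genes were followed through ureter obstruction and its reversal in mouse kidney: matrix Gla protein (Mgp), decorin (Dcn), biglycan (Bgn), lumican (Lum), osteoglycin (Ogn), asporin (Aspn) and versican (Vcan). They were chosen by name, as rows of the deposited table whose gene name equals one of the 7. The 7 genes and the gene lists used below were chosen with earlier results of these data known, so their tests and counts are not independent of that knowledge. Mgp was picked for its rise between days 2 and 7 of obstruction, so its values in any comparison that uses those groups are described and not tested. The table had a row for 6 of the 7 among its 14785 genes, and Aspn is not analysed here. All animals were male C57/BL6 mice, aged 8 to 9 weeks when the experiment began, and kidney (cortical, in the words of the series title) was sequenced from 4 of the 10 mice in each of 6 groups. Sham mice had surgery without ligation. In UUO-2 and UUO-7 mice 1 ureter was ligated for 2 or 7 days. In R1W, R2W and R4W mice the ureter was ligated for 7 days and then reimplanted, with 1, 2 or 4 weeks of recovery. The labels do not give the time at which sham mice were culled, and the 3 reversal groups were older at cull and had a further operation, which cannot be told apart from recovery itself. R4W replicate 2 carries a treatment label for 2 weeks and was placed by its title.

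Decorin, biglycan, lumican, osteoglycin and asporin belong to the small leucine-rich proteoglycan family, curved proteins built of leucine-rich repeats, several of which bind collagen fibrils. Decorin and biglycan (class I) carry chondroitin or dermatan sulfate and bind TGF-beta, lumican (class II) carries keratan sulfate, and osteoglycin (class III) is also called mimecan. Versican is a large, unrelated chondroitin sulfate proteoglycan that binds hyaluronan in provisional matrix. Matrix Gla protein is a small vitamin K-dependent protein that inhibits calcification of soft tissue. In kidney these genes are known mainly from fibroblasts, pericytes and vessel walls. In bulk tissue, fewer cells of a type and less RNA per cell cannot be told apart.

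The coding stretches that separate these families are shown first, because class I, II and III genes are described side by side below. They were read from the longest complete coding sequence of each gene in GENCODE M21 (GRCm38), 5′ to 3′. The pattern for the leucine-rich proteoglycans was 4 cysteine codons at a fixed spacing, searched in frame; capitals mark those codons, and each of the 4 genes matched the pattern of its own class once and no other.
Dcn: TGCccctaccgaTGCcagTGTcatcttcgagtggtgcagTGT
Bgn: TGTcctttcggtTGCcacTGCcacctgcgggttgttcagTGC
Lum: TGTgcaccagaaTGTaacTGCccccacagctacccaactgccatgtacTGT
Ogn: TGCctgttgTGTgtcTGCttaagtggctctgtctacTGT
Mgp: GAGatcaacagaGAGgccTGC
The decorin stretch covered codons 49 to 62 of 354 and the biglycan stretch codons 64 to 77 of 369, with 3, 1 and 6 codons between the cysteines in both. Lumican had 9 codons in its last gap (codons 37 to 53 of 338), and osteoglycin had 2 in its first gap (codons 94 to 106 of 298). In Mgp the search was for 2 glutamate codons and a cysteine codon at the spacing known from vitamin K-dependent proteins, which occurred once, at codons 67 to 73 of 104. The same glutamate and cysteine pattern occurred 3 times in the 3354 codons of versican, so a match is a description and not a site.

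The genes lie on 4 chromosomes of GRCm38. Mgp is on the minus strand at chr6:136872435-136875823, Bgn on the plus strand at chrX:73483602-73495933, and Vcan on the minus strand at chr13:89655312-89742509. Dcn (chr10:97479609-97518143, plus strand) has Lum (chr10:97565128-97572703, plus strand) as its next gene in the table, 46984 bases away. Ogn (chr13:49608046-49624501, plus strand) has Ecm2, which encodes a matrix protein with leucine-rich repeats, as the nearest gene to its left with a row in the table, 75256 bases away. The RefSeq start of Aspn lies between them. None of the 6 overlapped another gene of the table.

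Promoters are shown for the genes with the largest and the smallest tested rise at day 7 on the log2(FPKM + 1) scale, biglycan and osteoglycin. These are the last 120 bases before the RefSeq start (GRCm38.p6), with matches to the searched motifs in capitals. RefSeq windows were matched by symbol for 3 of the 6 genes (Bgn, Ogn and Vcan).
Bgn, chrX:73483481-73483600, plus strand: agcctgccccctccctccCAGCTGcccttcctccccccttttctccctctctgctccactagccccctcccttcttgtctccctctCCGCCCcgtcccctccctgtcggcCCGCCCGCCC
Ogn, chr13:49607895-49608014, plus strand: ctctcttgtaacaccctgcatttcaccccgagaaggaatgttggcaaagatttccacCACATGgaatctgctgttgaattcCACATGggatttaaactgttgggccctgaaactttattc
Motifs were searched on both strands of the 250 bases before the start: GGGCGG for the GC box, TATAAA for the TBP-binding box, CCAAT for the box of that name, TGANTCA for the AP-1 site, CANNTG for the E-box and GTCTAGAC for the SMAD element. The Bgn window held 3 GC boxes, of which 2 overlap each other, and 1 E-box. The Ogn window held no GC box, 3 E-boxes and 2 overlapping matches to the TBP-binding box that lie upstream of the stretch shown. The Vcan window held 2 GC boxes, 1 CCAAT match and 1 E-box. GC content was 64.4% for Bgn, 62.4% for Vcan and 42.0% for Ogn, against a median of 52.4% over all windows. Of 32851 windows of the same length 32.7% held a GC box, 12.4% a TBP-binding box, 33.8% a CCAAT match, 66.2% an E-box, 6.75% an AP-1 site and 0.167% the SMAD element. No window of the 3 held the last 2.

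Values are FPKM (sequenced fragments scaled for the length of the transcript and the size of the library), a unit inferred from the table. Column sums were 717415 to 830179. Low values outside UUO-2 were spaced as whole fragments at a depth of 24200000 to 36600000 fragments per library, which puts the Lum value behind each sham library at only 17 to 112 fragments, and that of Ogn at 145 to 340. The 4 UUO-2 libraries showed no such spacing. They had 2343 to 2832 FPKM of the mitochondrial ribosomal RNA mt-Rnr1 against 342 to 709 in the other 20, carry a differently formed sample number, and the design text describes 20 multiplexed libraries. A difference between UUO-2 and any other group cannot be told apart from these differences in library. The 4 proximal tubule genes used as a tissue check summed to 3187 to 3728 FPKM in sham and 730.5 to 896.2 in UUO-7.

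There were 3 libraries that stood apart in the adipose list (Adipoq, Plin1, Cfd, Fabp4 and Retn, 5 of 5 in the table). The sum was 289.26 in sham replicate 2, 1618.56 in R4W replicate 1 and 399.46 in R4W replicate 3. It was 39.87 to 48.15 in the other shams and 62.10 and 69.58 in the other R4W libraries. The fat cell hormone Adipoq was 12.54, 79.67 and 25.58 in those 3 libraries and at most 0.79 in each of the others. The urothelium list (5 of 5 genes) summed to 25.73 in sham replicate 2 against 0.64 to 1.53 in the other shams, and to 110.33 and 87.48 in R4W replicates 1 and 3 against 35.23 and 56.84. All 6 genes were highest, among shams, in sham replicate 2. The differences of the 6 genes, their ratios and the pathway lists in comparisons that involve sham or R4W were therefore also computed without these 3 libraries, a choice made after the marker sums were seen.

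**Figure D1:**
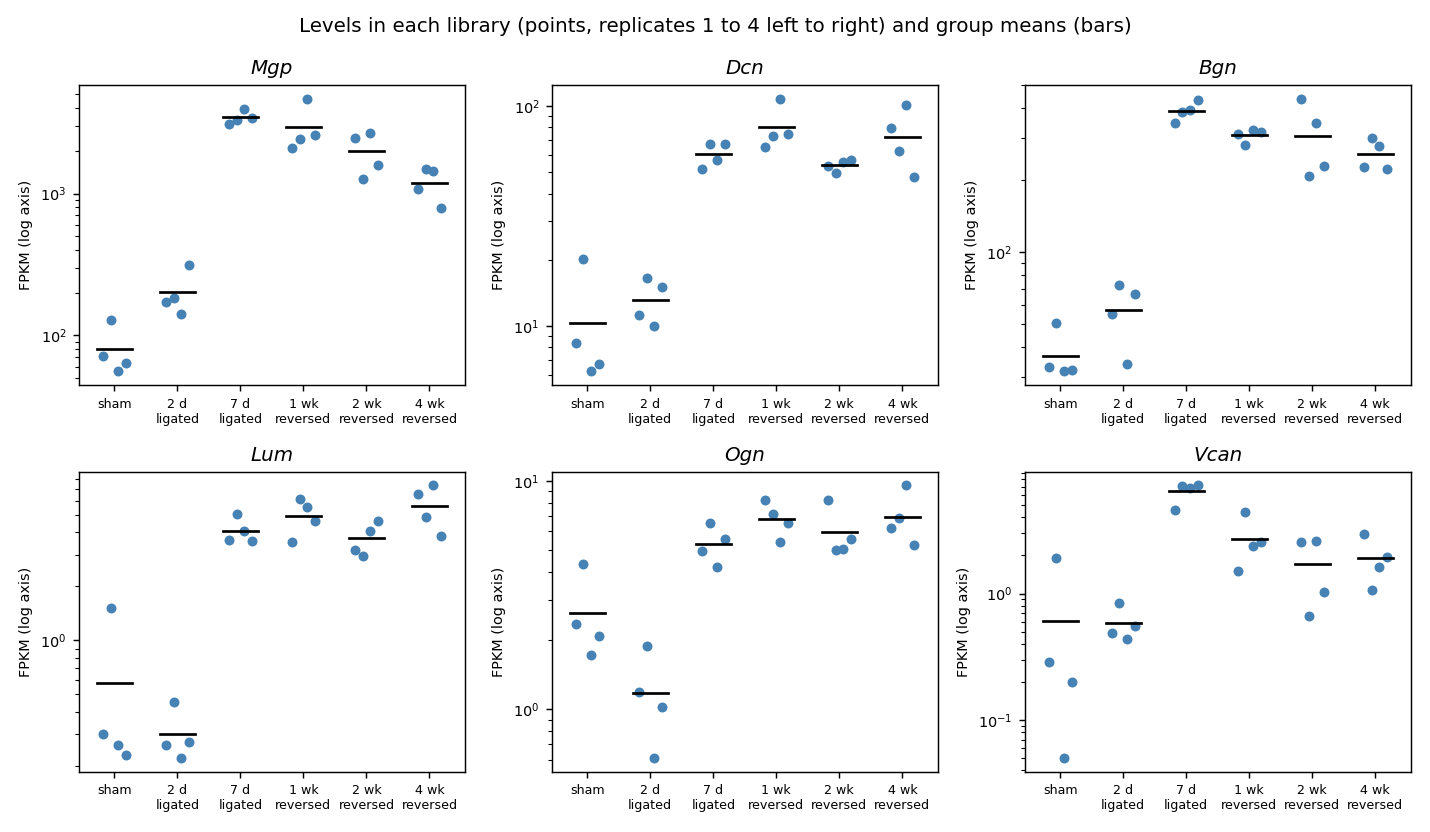
Level of each gene in every library (points, FPKM on a log axis, replicates 1 to 4 from left to right within a group) and the mean of the 4 libraries (bar) in the 6 groups. The UUO-7 libraries sit above all sham libraries for Mgp, Dcn, Bgn, Lum and Vcan, Ogn dips at 2 days, and sham replicate 2 (the second point) is the highest sham in all panels.

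Matrix Gla protein had the highest levels and the widest range. The sham libraries held 71.04, 127.83, 55.54 and 63.62 FPKM, and the UUO-2 libraries 170.30, 183.61, 141.58 and 310.43. The UUO-7 libraries held 3116.64, 3284.60, 3942.60 and 3422.56 FPKM. No library of one of these groups overlapped another group. The mean was 79.5 ± 32.8 (SD, n = 4) in sham, 201.5 ± 74.7 in UUO-2 and 3442 ± 357 in UUO-7, that is 43.3 times the sham mean. Ranked by mean level, Mgp was number 1228 of the table in sham and number 14 in UUO-7. After reversal it was 2111.72, 2405.60, 4677.06 and 2596.62 FPKM in R1W, then 2453.11, 1270.48, 2659.77 and 1577.11 in R2W, then 1068.15, 1488.10, 1439.47 and 785.82 in R4W. R1W overlapped UUO-7, while R2W and R4W lay wholly below it. The order of the group means was UUO-7, R1W, R2W, R4W, UUO-2 and sham, and the neighbours UUO-7 and R1W, R1W and R2W, and R2W and R4W overlapped.

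After 2 days of ligation, of the 5 proteoglycans tested, limma called biglycan higher and osteoglycin lower than sham. The threshold was an adjusted p under 0.05 over all 14785 genes, at which 32.3% of all genes were called higher and 17% lower. These calls are near or under those shares and say nothing about the set. They also cannot be told apart from the library differences of UUO-2 given above. Biglycan was 33.02, 50.73, 31.66 and 32.08 FPKM in sham and 55.20, 73.04, 34.06 and 67.03 in UUO-2, so the groups overlapped. Its difference was 0.60 ± 0.22 (SE) on the log2(FPKM + 1) scale, with a limma adjusted p of 0.0298. That call was lost when libraries were rescaled to equal medians (0.47, adjusted p = 0.0617). It was also lost on leaving out any one of sham replicates 1, 3 and 4 or UUO-2 replicates 1, 2 and 4 (adjusted p 0.0552 to 0.0991).

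Osteoglycin was 2.37, 4.34, 1.73 and 2.09 FPKM in sham and 1.19, 1.89, 0.61 and 1.02 in UUO-2. Only UUO-2 replicate 2 reached into the sham range. Its fall of 0.72 ± 0.21 (log2 scale, SE) had a limma adjusted p of 0.00734. With a pseudocount of 10 in place of 1 the difference was −0.17 and the call was lost (limma adjusted p = 0.0799). Decorin was 8.40, 20.12, 6.22 and 6.71 FPKM in sham and 11.26, 16.57, 9.95 and 14.98 in UUO-2, a difference of 0.44 ± 0.27 (limma adjusted p = 0.177). Sham replicate 2 alone lay above the UUO-2 libraries for decorin, and without it the difference was 0.79 (limma adjusted p = 0.00386). Lumican (−0.21 ± 0.21, adjusted p = 0.423) and versican (0.09 ± 0.30, adjusted p = 0.822) were not called by limma. Both changed sign with single sham libraries left out: lumican was 0.04 without sham replicate 2, and versican −0.07 without sham replicate 3.

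At 7 days all 5 tested proteoglycans were higher than in sham, beside 60.1% of all genes called higher and 17.8% lower. The log2 difference of the median gene was 0.42, and after rescaling to equal medians 36.5% of genes were higher and 36.5% lower. The 5 calls held on the rescaled values. The smallest gene mean over the 24 libraries of the table is 1 FPKM, while Lum and Vcan had sham means of 0.575 and 0.61. Those 2 are thus in the table only through the groups where they are high, which favours a rise from sham, so the count of 5 supports nothing beyond the values of each gene. With the pseudocount of 1 the differences ran in the order Bgn, Dcn, Vcan, Lum and Ogn. With 0.1 Vcan came first at 3.89, then Bgn (3.43), Lum (2.98), Dcn (2.70) and Ogn (1.05), so only the last place was the same with both. The comparisons given here share libraries (sham in 3 of them, UUO-7 in 3), so they are not independent of each other.

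Biglycan, the class I proteoglycan of greatest level here, was 348.02, 384.80, 395.64 and 434.84 FPKM in UUO-7. That is a mean of 390.8 ± 35.7 (SD, n = 4) against 36.9 ± 9.26 in sham, or 10.6 times, and the log2 difference was 3.39 ± 0.22 (limma adjusted p = 6.8e-11). Decorin, the other class I gene, was 51.45, 67.32, 56.80 and 66.87 FPKM. Its lowest UUO-7 library was above every sham library, and its log2 difference was 2.58 ± 0.27 (limma adjusted p = 2.18e-08). Lumican, the keratan sulfate proteoglycan, was near the floor of the table in sham, at 0.30, 1.51, 0.26 and 0.23 FPKM, and reached 3.61, 5.09, 4.10 and 3.57 in UUO-7. The log2(FPKM + 1) difference of 1.75 ± 0.21 (limma adjusted p = 1.39e-07) understates its ratio of means, which was 7.12 with all shams and 15.5 without sham replicate 2.

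Versican was 0.29, 1.90, 0.05 and 0.20 FPKM in sham and 4.59, 7.12, 6.85 and 7.17 in UUO-7, with no overlap, and differed by 2.32 ± 0.30 (limma adjusted p = 5.15e-07). Its UUO-7 mean was 10.5 times the sham mean, and 35.7 times without sham replicate 2. Osteoglycin rose least. It was 4.91, 6.54, 4.21 and 5.54 FPKM in UUO-7, and sham replicate 2 lay within that range. Its difference was 0.83 ± 0.21 (limma adjusted p = 0.00121), and 0.46 after rescaling (adjusted p = 0.048). The fibroblast and pericyte list (6 of 6 genes in the table, one of them Col1a1) summed to 8.67 to 21 FPKM in sham and 245.84 to 261.95 in UUO-7. The smooth muscle sum was 33.19 to 77.65 in sham and 260.20 to 358.22 in UUO-7. Most of it was Tagln (16.02 to 36.25, then 158.62 to 225.57) and Acta2 (11.04 to 26.97, then 79.15 to 108.31). Actg2 and Des also rose, while Myh11 (3.26 to 6.47, then 2.88 to 3.78) and Cnn1 (0.82 to 2.80, then 1.08 to 2.69) overlapped. The endothelial sum was 41.12 to 75.78 and 112.31 to 125.59, and the macrophage sum 20.56 to 22.70 and 98.02 to 118.80. Their part in these rises was not tested.

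**Figure D2:**
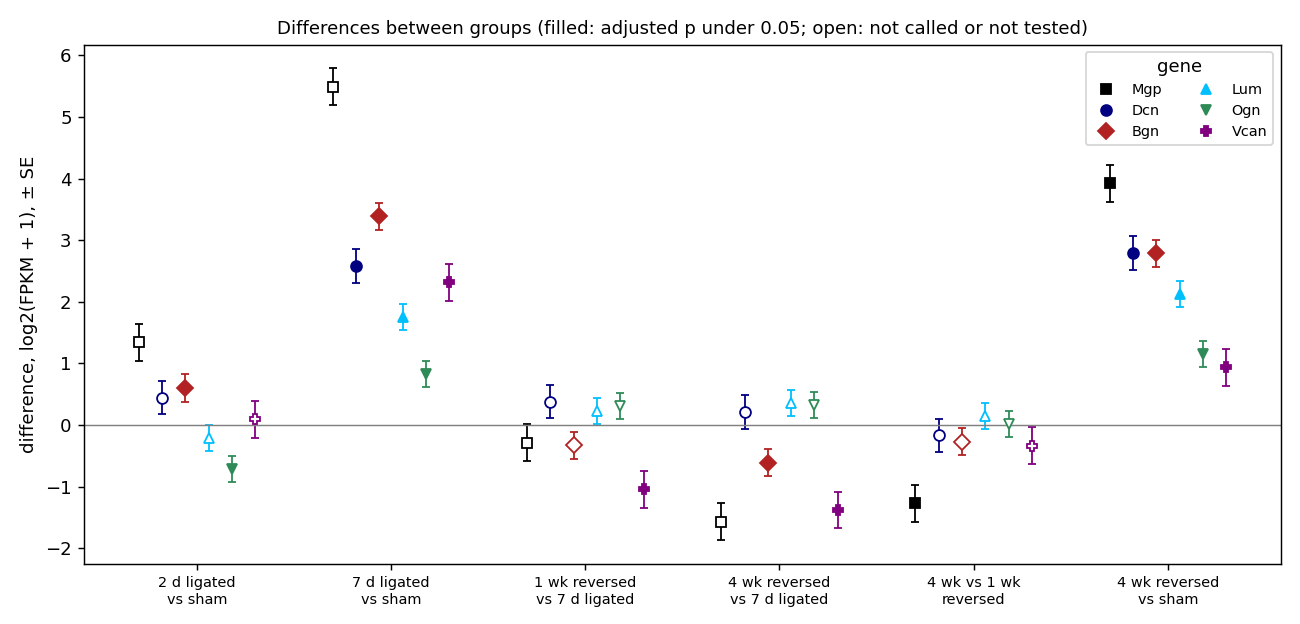
Difference between groups for each gene on the log2(FPKM + 1) scale with its limma SE; filled symbols had an adjusted p under 0.05, and open symbols were not called or, for Mgp in the comparisons that use UUO-2 or UUO-7, not tested. The 5 tested genes are filled and above 0 at 7 days, versican alone is filled below 0 at 1 week of reversal, and all 6 are filled and above 0 in R4W against sham.

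Between days 2 and 7, the interval on which Mgp was chosen, the log2 difference was 4.15 for Mgp, the 7th greatest of all genes. It was 2.80 for Bgn, 2.22 for Vcan, 2.14 for Dcn, 1.96 for Lum and 1.55 for Ogn, against 0.28 for the median gene. For each of the 6, every UUO-7 library lay above every UUO-2 library. These values are a description of the groups that chose Mgp.

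One week after reversal, versican was the one gene of the 5 tested that limma called. It was 1.51, 4.39, 2.38 and 2.57 FPKM in R1W, all below the lowest UUO-7 library, a fall of 1.04 ± 0.30 (limma adjusted p = 0.0247), beside 8.04% of all genes called lower and 6.47% higher. The call was lost on leaving out UUO-7 replicate 2, 3 or 4 or R1W replicate 1 or 4 (limma adjusted p 0.0533 to 0.0847), with falls of 0.87 to 1.04. Biglycan was 313.57, 281.17, 325.44 and 317.36 FPKM, also wholly below UUO-7, but its difference of −0.33 ± 0.22 was not called by limma (adjusted p = 0.323). In a limma fit on these 2 groups alone it was called (adjusted p = 0.0368). In the authors' deposited table the same comparison has a log2 value of −0.32 with an adjusted p of 0.013. Decorin was 64.97, 72.92, 108.03 and 74.94 FPKM and overlapped UUO-7, as did lumican (3.52, 6.14, 5.57 and 4.66) and osteoglycin (8.21, 7.18, 5.37 and 6.54). Their limma differences were 0.38, 0.22 and 0.31, with adjusted p of 0.351, 0.503 and 0.331. For decorin the authors' deposited table has R1W above UUO-7 by a log2 value of 0.43, with an adjusted p of 0.0471. The fibroblast and pericyte sum was 158.06 to 196.41 FPKM in R1W against 245.84 to 261.95 in UUO-7, though Dpt of that list was 23.76 to 34.08 against 13.33 to 20.06. The proximal tubule sum was 1026.18 to 1695.31 against 730.49 to 896.18. The part of both sums in the versican fall was not tested.

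At 4 weeks after reversal the group means of the 6 genes ran from 29.6% (Vcan) to 138% (Lum) of their own UUO-7 means. Versican and biglycan, 2 of the 5 tested, were called lower than at day 7 and none higher, beside 30.8% of all genes called lower and 17.6% higher (23.2% and 25.1% after rescaling). The count of 2 is near the share of all genes and says nothing about the set. Versican was 2.97, 1.07, 1.62 and 1.95 FPKM in R4W, below every UUO-7 library, a fall of 1.38 ± 0.30 (limma adjusted p = 0.000891). That is 29.6% of its UUO-7 mean. Biglycan was 228.39, 300.10, 279.44 and 223.12 FPKM, again with no overlap, a fall of 0.61 ± 0.22 (limma adjusted p = 0.0283) to 66.0% of its UUO-7 mean. The biglycan call was lost without UUO-7 replicate 3 or 4 or R4W replicate 1 or 4 (limma adjusted p 0.0566 to 0.0784). It was also lost without the 3 libraries of high adipose sum (−0.59, adjusted p = 0.0872). The fibroblast and pericyte sum was 91.52 to 142.82 FPKM in R4W against 245.84 to 261.95 in UUO-7. Thy1, Col1a1, Pdgfrb and Postn of that list lay below UUO-7. Pdgfra (9.59 to 14.40 against 12.43 to 15.84) overlapped, as did Dpt (18.45 to 34.90 against 13.33 to 20.06). The proximal tubule sum was 1573.44 to 2238.92 against 730.49 to 896.18, and the part of both sums in the versican and biglycan falls was not tested.

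Decorin, lumican and osteoglycin were not lower than at day 7. Decorin was 79.80, 62.55, 100.66 and 47.40 FPKM in R4W, spread on both sides of the UUO-7 range, with a limma difference of 0.21 (95% interval −0.34 to 0.76, adjusted p = 0.531). Its 2 highest libraries were replicates 1 and 3, those with high adipose and urothelium sums, and the sign turned without them and sham replicate 2 (−0.14, limma adjusted p = 0.59). Lumican was 6.56, 4.89, 7.33 and 3.84 FPKM, with a difference of 0.36 (95% interval −0.07 to 0.79, limma adjusted p = 0.152). It too was highest in replicates 1 and 3, and without the 3 libraries its difference was 0.08 (limma adjusted p = 0.744). Osteoglycin was 6.23, 6.84, 9.55 and 5.22 FPKM, with a difference of 0.32 (95% interval −0.11 to 0.76, limma adjusted p = 0.212). The part of the adipose and urothelium markers in these levels was not tested. In the authors' deposited table R4W is above UUO-7 for lumican (0.53, adjusted p = 0.0236) and osteoglycin (0.46, adjusted p = 0.0297), on the log2 scale. Mgp, described only, was 1.57 lower than at day 7, at 34.7% of its UUO-7 mean.

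**Figure D3:**
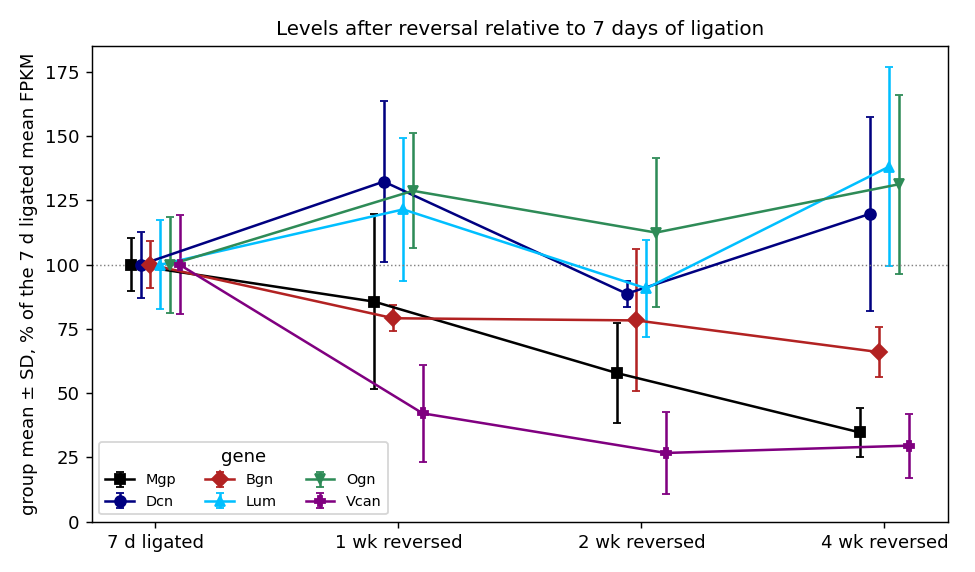
Group mean of each gene as a percentage of its own UUO-7 mean FPKM (y axis) at day 7 of ligation and 1, 2 and 4 weeks after reversal (x axis); bars are SD over 4 libraries on the same scale. Vcan, Mgp and Bgn end at 29.6%, 34.7% and 66.0%, while Dcn, Lum and Ogn end above 100% with SD bars that reach below it.

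At 4 weeks of recovery all 6 genes were still higher than in sham by limma, beside 54.8% of all genes called higher and 11.6% lower. The log2 difference of the median gene was 0.30 before rescaling. After rescaling 28.9% of genes were higher and 31.1% lower, and all 6 calls held. They also held in each fit that left out 1 library, and without the 3 libraries of high adipose sum. As at day 7, Lum and Vcan are in the table only through the groups where they are high, which favours a rise from sham. The count of 6 therefore supports nothing beyond the values of each gene. Mgp was 15.0 times its sham mean, a difference of 3.92 ± 0.30 (limma adjusted p = 2.57e-09). Decorin and biglycan differed by the same 2.79 on the log2 scale, with limma adjusted p of 2.83e-08 and 3.51e-09, and stood at 7.01 and 6.99 times their sham means. Lumican differed by 2.12 (limma adjusted p = 3.9e-08), osteoglycin by 1.15 (8.25e-05) and versican by 0.94 (0.00947). The sizes for the low genes depend on the pseudocount: with 0.1 and 10, versican was 2.12 and 0.17, lumican 3.41 and 0.56, and osteoglycin 1.42 and 0.42, all still called by limma. As folds of means, lumican was 9.83 times sham (21.5 without sham replicate 2) and versican 3.12 times (10.6 without it). Versican was the one gene whose R4W range overlapped sham, through sham replicate 2 at 1.90 FPKM. In the authors' deposited table it has a log2 value of 0.94 in R4W against sham, with no adjusted p. Against sham their adjusted p for versican was 0.107 in R1W and 0.337 in R2W.

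Between 1 and 4 weeks of recovery Mgp was the one gene of the 6 that limma called, beside 14.1% of all genes called lower and 5.06% higher. Every R4W library lay below every R1W library, and the fall was 1.27 ± 0.30 (limma adjusted p = 0.00887). R1W replicate 3 was the highest library of the series, at 4677.06 FPKM, and without it the fall was 1.03 (limma adjusted p = 0.0513). In a fit on these 2 groups alone the adjusted p was 0.058. The other 5 differed by −0.34 (Vcan) to 0.15 (Lum), with limma adjusted p of 0.392 to 0.98. In the authors' deposited table versican is lower in R4W than in R1W, with a log2 value of −0.83 and an adjusted p of 0.000441. Versican stood at 2.71 ± 1.21 FPKM in R1W, 1.72 ± 1.02 in R2W and 1.90 ± 0.799 in R4W (SD, n = 4). The fibroblast and pericyte sum was 91.52 to 142.82 FPKM in R4W against 158.06 to 196.41 in R1W, while Dpt of that list overlapped. The podocyte sum was 110.27 to 158.14 against 78.96 to 85.83, and the smooth muscle and macrophage sums overlapped. The part of these markers in the Mgp fall was not tested.

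A plain FPKM ratio of 2 genes within a library does not depend on how libraries are scaled. The tested difference of log2(FPKM + 1) does to some degree for low genes such as versican and lumican. Differences of log2(FPKM + 1) between the genes were compared with the exact permutation test (two-sided, 4 libraries in each group), which cannot give a p below 0.0286. There were 11 tests, and a ratio whose groups do not overlap has an exact p of 0.0286 and an adjusted p of 0.0449. Each ratio call ended with a pseudocount of 0.1 (adjusted p of at least 0.0629). The adjusted p also passed 0.05 on leaving out any 1 library of sham, UUO-7 or R1W from its own comparison (exact test, adjusted p 0.0524 to 0.135), and stayed at 0.0449 on leaving out any 1 R4W library. In 28 of the 40 tests without a sham, UUO-7 or R1W library the exact p was still 0.0286 and the adjusted p rose with other tests of the 11, so the passing of the threshold there is no sign of a smaller difference. Without the 3 libraries of high adipose sum, the adjusted p was 0.122 to 0.157, with as few as 2 R4W libraries. A planned set of 3 tests with Aspn was not run.

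The 2 class I genes did not keep a constant proportion. Biglycan over decorin, as a ratio of FPKM, was 4.08 ± 1.15 in sham, 4.30 ± 0.626 in UUO-2 and 6.49 ± 0.548 in UUO-7 (SD, n = 4). It was 3.98 ± 0.76 in R1W, 5.68 ± 1.96 in R2W and 3.79 ± 1.12 in R4W. On the log2 scale decorin fell by 0.82 relative to biglycan at day 7 against sham and regained 0.82 by R4W, both with no overlap (exact p = 0.0286, adjusted p = 0.0449). With a pseudocount of 10 the first was −1.27. In R4W the ratio ran from 2.78 to 4.8, and replicates 1 and 3, those with high adipose sums, were the low pair. Without the 3 libraries of high adipose sum the second log2 value was 0.45, from 2 R4W libraries. R4W and R1W overlapped (0.10, exact p = 0.771).

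Versican relative to decorin fell by 1.59 between day 7 and R4W, with no overlap (exact p = 0.0286, adjusted p = 0.0449) and so within the same libraries. With a pseudocount of 10 the value was −0.66. R4W and R1W overlapped (−0.17, exact p = 0.686). Between sham and day 7 the same ratio changed sign with the constant added before the logarithm (−0.26 with 1, 1.19 with 0.1), because sham versican was mostly under 0.3 FPKM, and no direction is given. The decorin to lumican ratio of day 7 against sham behaved likewise (0.82 with 1, −0.28 with 0.1). As plain FPKM, decorin over lumican was 23.6 ± 7.21 in sham, 15.0 ± 2.51 in UUO-7 and 12.8 ± 0.701 in R4W.

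Mgp over decorin was 8.31 ± 1.37 in sham, 57.5 ± 9.44 in UUO-7, 35.9 ± 5.04 in R1W and 17 ± 4.71 in R4W. The R4W ratio was 1.14 above sham and 1.11 below R1W on the log2 scale, each with no overlap (exact p = 0.0286, adjusted p = 0.0449). The values were 1.03 and −1.10 with a pseudocount of 0.1, where the calls ended, and 1.74 and −1.12 with 10. The R4W libraries ran from 13.4 to 23.8, so the ratio in every one of them was still above the highest sham, at 9.48.

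**Figure D4:**
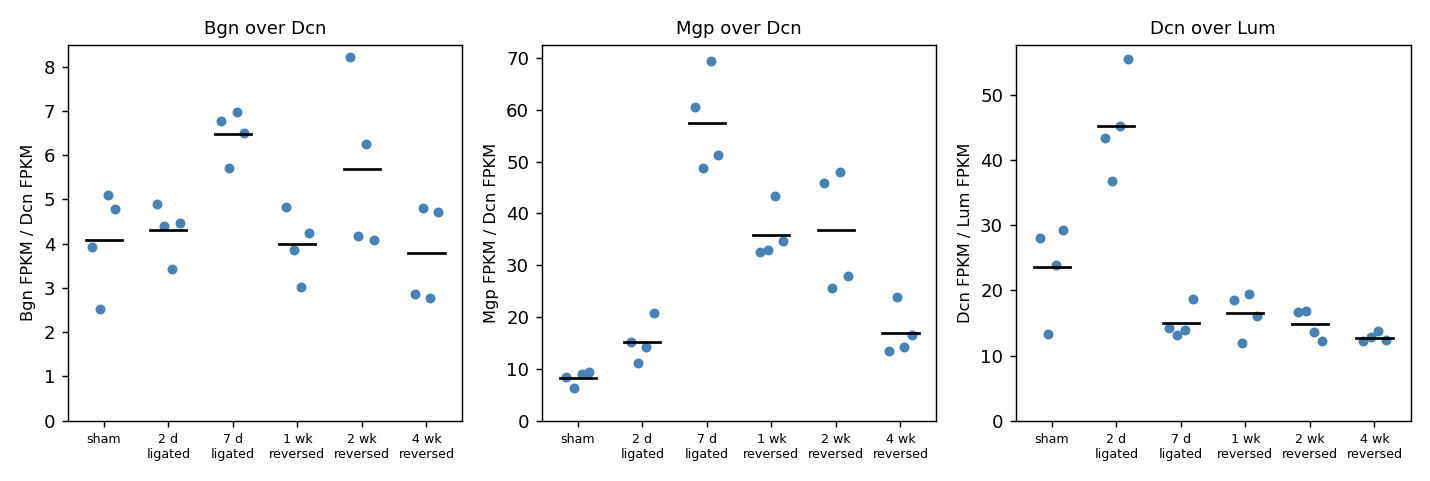
Ratio of FPKM within each library (points) and its group mean (bar) for Bgn over Dcn, Mgp over Dcn and Dcn over Lum in the 6 groups, with y axes from 0. Bgn over Dcn has its highest mean at 7 days (6.49), Mgp over Dcn peaks at 57.5 and is 17 at 4 weeks of reversal, and the R2W points fall into a high and a low pair in the first and second panels.

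Within groups the genes varied together to different degrees. As deviations from group means over 24 libraries, Pearson's r was 0.85 for decorin with lumican (0.71 without sham replicate 2), 0.75 for Mgp with biglycan and 0.72 for Mgp with decorin. For biglycan with lumican it was 0.32 (0.08 without sham replicate 2). These libraries share animal, library scaling and tissue makeup, and the values are descriptions. The R2W group shows the split. Biglycan was 439.80 and 346.87 FPKM in R2W replicates 1 and 3 but 207.42 and 230.35 in replicates 2 and 4. Versican was 2.57 and 2.62 against 0.67 and 1.02, and Mgp 2453.11 and 2659.77 against 1270.48 and 1577.11. Decorin was 53.57 and 55.40 FPKM in the first pair and 49.60 and 56.52 in the other, so it did not follow. Nor did lumican (3.21 and 4.07 against 2.95 and 4.63) or osteoglycin (8.24 and 5.05 against 4.98 and 5.58). The fibroblast and pericyte sum was 209.74 and 207.02 in replicates 1 and 3 and 98.88 and 117.09 in replicates 2 and 4. The macrophage sum was 165.86 and 133.04 against 79.14 and 88.72, the smooth muscle sum 263.18 and 249.86 against 144.63 and 181.50, and the proximal tubule sum 1186.22 and 1103.34 against 2194.21 and 1812.27. The part of these markers in the split was not tested.

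The genes of the table most like each gene were named by Pearson's r of log2(FPKM + 1) over the 24 libraries, among 10328 genes with a mean of at least 5. For Mgp they were C1qtnf5 (0.995), Marcks (0.993) and Pdlim4 (0.992). For Bgn they were Olfml3, Sh3bp1 and Rcn3 (0.992 each). For Dcn they were Fbln1 (0.983), a basement membrane and elastic fibre protein, Fxyd1 (0.975) and Serpinf1 (0.973). For Lum they were Fbln1 (0.975), Dcn (0.971) and Stom (0.969). For Ogn they were Tmem204 (0.966), the related proteoglycan Prelp (0.965) and the pericyte gene Rgs5 (0.959). Vcan had lower values: Tmem127 (0.922), 2510039O18Rik (0.916) and Tmem106c (0.912). None of these 3 stayed among the top 3 for Vcan after rescaling, where r with Tmem127 was 0.426. Other names depended on the setting as well: without UUO-2, Bgn kept 0 and Mgp 1 of its top 3, and with Spearman's rho Mgp and Ogn kept 0. All these r rest on differences between groups.

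The other small leucine-rich proteoglycans of the table were Podn, Fmod, Prelp, Ecm2 and Tsku (5 of 12 listed). In UUO-2 all 5 were called lower than sham by limma, as Ogn was, beside 17% of all genes called lower (25.5% after rescaling), with a median difference of −0.93 against 0.09 for all genes, and with the library differences of UUO-2 given above. Podocan (Podn) was 3.22 to 3.91 FPKM in UUO-2 against 9.19 to 11.33 in sham (−1.30, limma adjusted p = 1.44e-06), and fibromodulin (Fmod), a collagen-binding class II protein, fell by 1.18 (5.69e-07). At day 7 2 of the 5 were called higher and 3 lower, beside 60.1% and 17.8% of all genes (36.5% each after rescaling). Prelp, another class II protein, was 9.60 to 12.13 FPKM against 2.62 to 5.08 in sham (1.46 ± 0.18, limma adjusted p = 2.04e-07), and Ecm2 was 0.89 higher (1.01e-08). Tsku (−0.41, limma adjusted p = 0.00211), Podn (−0.38, 0.0336) and Fmod (−0.46, 0.00412) were still lower. In R4W against UUO-7 Tsku, Podn and Fmod were higher by 0.78, 0.62 and 0.71 (limma adjusted p 2.14e-05, 0.00312 and 0.000256), and Prelp (0.28) and Ecm2 (0.09) were not called, beside 17.6% of all genes called higher (25.1% after rescaling). R4W replicate 1 was the highest library for Podn, at 16.57 FPKM. Without the 3 libraries of high adipose sum both later Podn calls were lost (−0.33, limma adjusted p = 0.0662 at day 7; 0.45, 0.0613 in R4W against UUO-7).

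**Figure D5:**
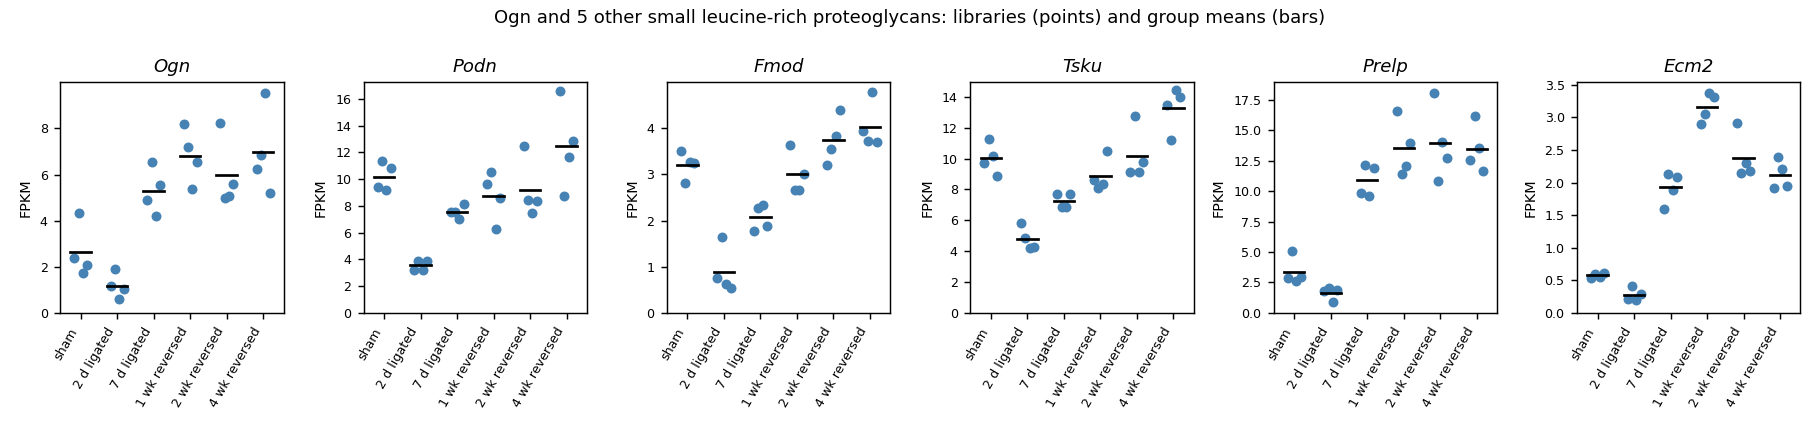
FPKM in each library (points) and group mean (bar) of Ogn and the 5 other small leucine-rich proteoglycans of the table, with y axes from 0. All 6 are lowest at 2 days of ligation; Podn, Fmod and Tsku lie below sham at 7 days, while Prelp and Ecm2 lie above it.

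The collagens and other fibrous partners to which these proteins bind all rose at day 7, 15 of 15 (60.1% of all genes, or 36.5% after rescaling), with a median difference of 2.72 against 0.42 for all genes. Col3a1 was 292 ± 47.6 FPKM against 6.41 ± 2.92 in sham (5.37 ± 0.27, limma adjusted p = 4.63e-12), and Col1a1 was 84.3 ± 8.66 against 2.21 ± 1.01 (4.77 ± 0.24, 5.48e-12). In R4W against UUO-7 9 of the 15 were lower and none higher, beside 30.8% of all genes called lower (23.2% after rescaling), with falls of 1.4 for Col3a1 and 1.21 for Col1a1 (limma adjusted p 0.000296 and 0.000433).

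Of the chondroitin and dermatan sulfate synthesis genes, 21 of 24 had a row, and at day 7 13 were called higher and 8 lower (11 and 8 after rescaling), with a median difference of 0.60 against 0.42 for all genes. The shares of all genes were 60.1% higher and 17.8% lower, or 36.5% each after rescaling. The chain polymerising factor Chpf was 31.1 ± 2.8 FPKM against 7.58 ± 1.08 in sham (1.91, limma adjusted p = 2.92e-10), and the chain initiating enzyme Csgalnact2 was 0.85 higher (4.56e-08). Papss2, which makes the sulfate donor, was 22.8 ± 0.72 against 75.1 ± 6.29 (−1.67, limma adjusted p = 4.52e-08), and the chondroitin 4-O-sulfotransferase Chst11 was 1.05 lower (8.88e-09). At R4W all 4 means lay between those of UUO-7 and sham: Chpf was 14.9 ± 2.75 FPKM and Papss2 53.5 ± 5.3, with limma adjusted p against UUO-7 of 1.6e-05 and 4.01e-05. Chst11 was 0.63 above UUO-7 (6.21e-05) and Csgalnact2 0.29 below it (0.0143), a call lost after rescaling (−0.19, adjusted p = 0.0546) and without the 3 libraries of high adipose sum (−0.26, 0.0865).

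Among hyaluronan partners 2 of 13 listed genes had a row, Cd44 and Hmmr, the latter also a hyaluronan receptor. Both were called higher at day 7, beside 60.1% of all genes (36.5% after rescaling). Their sham means of 0.258 and 0.21 FPKM are under the smallest gene mean of the table, so they are in it only through other groups, and the count says nothing about the list. Such genes were also 3 of the 21 chondroitin and dermatan sulfate genes, 2 of the 15 fibrous partners, 2 of the 7 proteases, 5 of the 14 ligands and receptors, 1 of the 13 vitamin K and calcification genes and 1 of the 5 other small leucine-rich proteoglycans, all called higher at day 7. Cd44, the main cell surface hyaluronan receptor, was 19.1 ± 1.05 FPKM against 0.258 ± 0.112 in sham (limma difference 4.00, adjusted p = 1.74e-12) and 7.92 ± 2.49 in R4W. Of 7 proteases that cleave or process versican or biglycan, 6 were called higher at day 7 and 0 lower (6 and 1 after rescaling), beside 60.1% and 17.8% of all genes (36.5% each after rescaling), with a median difference of 1.78 against 0.42 for all genes. Bmp1, the procollagen C-proteinase that also processes probiglycan, rose by 3.26 (limma adjusted p = 1.78e-11), and Adamts1, a versican-cleaving protease, by 2.60 (2.37e-09). In R4W against UUO-7 6 of the 7 were lower, beside 30.8% of all genes, with Bmp1 and Adamts1 down by 1.11 and 1.00 (limma adjusted p 9.73e-05 and 0.00132).

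Of 14 ligands and receptors bound by the members, 9 were called higher and 3 lower at day 7 (9 and 5 after rescaling), with a median of 1.28 against 0.42 for all genes. Of all genes 60.1% were higher and 17.8% lower (36.5% each after rescaling). The endocytic receptor Lrp1 rose by 3.17 (limma adjusted p = 3.7e-10) and Tgfb1, which decorin and biglycan bind, by 2.86 (1.18e-10). Bmp7 fell by 0.82 (1.19e-06) and Egfr by 0.46 (0.00423). In R4W, Tgfb1 stood at 15.3 ± 2.51 FPKM, between 3.58 ± 1.03 in sham and 31.7 ± 1.64 in UUO-7.

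Of the vitamin K cycle, other Gla proteins and calcification inhibitors, 13 of 15 had a row; 6 were higher and 2 lower at day 7 (4 and 5 after rescaling), with a median of 0.18 against 0.42 for all genes. Of all genes 60.1% were called higher and 17.8% lower (36.5% each after rescaling), so the list held no greater share of higher genes than the table. Osteopontin (Spp1) was 16100 ± 1210 FPKM against 480 ± 160 in sham (5.12 ± 0.22, limma adjusted p = 7.1e-13) and the Gla protein Pros1 41.6 ± 3.2 against 4.99 ± 1.3 (2.85 ± 0.16, 1.13e-11). Abcc6, an ATP-releasing transporter, fell by 0.92 (1.33e-05), and Nqo1, a quinone reductase, by 0.65 (0.000277). In R4W against UUO-7 Spp1 fell by 2.81 and Pros1 by 0.80 (limma adjusted p 3.69e-08 and 0.00038), and Spp1 was 2330 ± 392 FPKM.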

How the data were processed

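Kidney polyA RNA sequencing libraries from 24 mice (6 groups of 4) were analysed from 1 deposited table. Its unit is not stated, and FPKM was inferred here from the deposited values; the smallest gene mean in it is 1, and genes below that are not analysed here. RSEM, Bowtie2, DESeq2, FastQC and mm10 are named per the submitters' processing notes; the role of each is not given in the sources used here. The table also holds the authors' log2 fold changes and adjusted p-values for 15 comparisons, deposited without naming the test.

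A linear model with a coefficient for each group was fitted to log2(FPKM + 1) of all genes and 24 libraries with limma 3.58.1 (moderated statistics with a mean trend, R 4.3.3), with Benjamini-Hochberg adjustment over 14785 genes and a threshold of 0.05. The fit was tested on simulated data. Ratios and sequences were computed in Python 3.11.15 (scipy 1.17.1). Members and gene lists were chosen with earlier results of these data known. Alternatives were rescaling by the median ratio, pseudocounts of 0.1 and 10, a minimum mean of 10, a 2-group fit, a replicate block, stricter thresholds, single libraries left out and R4W replicate 2 placed in R2W. Genes outside the set were named by rule: up to 2 rises and 2 falls per list at day 7 (called, mean at least 5), the 3 genes most alike to each member by Pearson's r, and neighbours. Fmod and Hmmr were named after their values were seen, to complete their lists.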

Additional observations from a re-analysis of the deposited data

Results flagged for a closer look

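In 36 checks of a gene in a group of 4, 5 had a library far from the other 3, where chance gives about 1.8. Sham replicate 2 accounts for 4 of them. Decorin was 20.12 FPKM there against 6.22 to 8.40 in the other shams, biglycan 50.73 against 31.66 to 33.02, lumican 1.51 against 0.23 to 0.30, and versican 1.90 against 0.05 to 0.29. The same library had an adipose sum of 289.26 and a urothelium sum of 25.73, and the part of either in these values was not tested. Versican in UUO-7 replicate 1 was 4.59 FPKM against 6.85 to 7.17 in the other 3 libraries.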

How the results depend on the processing

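Counts of tested genes called, out of 5 (6 in the last 2 comparisons), changed as follows. UUO-2 against sham went from 2 to 1 on rescaling, with a pseudocount of 10, with a minimum mean of 10, in a 2-group fit and at an adjusted p of 0.01, to 0 with a log2 minimum of 1, and ran from 1 to 3 with single libraries left out. UUO-7 against sham went from 5 to 2 with a minimum mean of 10, which removes the other genes from the test, to 4 with a log2 minimum of 1 (Ogn, 0.83), and stayed at 5 with single libraries left out. R1W against UUO-7 went from 1 to 0 with a pseudocount of 0.1, a minimum mean of 10 or an adjusted p of 0.01, to 2 in a 2-group fit, and ran from 0 to 1 with single libraries left out. R4W against UUO-7 went from 2 to 1 with a minimum mean of 10, an adjusted p of 0.01, a log2 minimum of 1 or without the 3 libraries of high adipose sum, and ran from 1 to 2 with single libraries left out. R4W against sham went from 6 to 3 with a minimum mean of 10 and to 5 with a log2 minimum of 1 (Vcan, 0.94). R4W against R1W went from 1 to 0 in a 2-group fit and ran from 0 to 1.

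Signs of single genes turned only where the difference was not called. In UUO-2 against sham, Vcan was 0.00 with a pseudocount of 10 and −0.37 in the authors' deposited table, and ran from −0.07 to 0.42 with single libraries left out. Lum ran from −0.30 to 0.04 there and was 0.04 without the 3 adipose-rich libraries. In R4W against UUO-7, Dcn was −0.14 without those 3. In R4W against R1W, Lum was −0.14 and Ogn −0.15 without them, and with single libraries left out Ogn ran from −0.13 to 0.12 and Dcn from −0.34 to 0.01.

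Ratios with single libraries left out ran, for Dcn to Lum, from 0.73 to 0.92 (UUO-7 against sham) and −0.44 to −0.22 (R4W against R1W); for Dcn to Bgn, from −0.92 to −0.63, 0.69 to 0.95 (R4W against UUO-7) and −0.03 to 0.23; for Vcan to Dcn, from −0.32 to −0.20, −1.80 to −1.38 and −0.38 to 0.06; and for Mgp to Dcn, from 0.96 to 1.24 (R4W against sham) and −1.28 to −1 (R4W against R1W). The adjusted p-values of the called ratios were then 0.0524 to 0.135 without a sham, UUO-7 or R1W library and 0.0449 without an R4W library. With a pseudocount of 0.1 the Dcn to Bgn ratio was −0.73 and 0.82, Vcan to Dcn 1.19 and −1.98, Mgp to Dcn 1.03 and −1.10 and Dcn to Lum −0.28 (adjusted p of at least 0.0629); with 10, all calls held, but Vcan to Dcn was −1.20 and −0.66, Dcn to Bgn −1.27 and Mgp to Dcn 1.74 (R4W against sham), Dcn to Lum was 1.42 in UUO-7 against sham and 0.04 in R4W against UUO-7 and Vcan to Dcn 0.06 in R4W against R1W. Without the 3 adipose-rich libraries Dcn to Lum was 0.92, Dcn to Bgn −0.63, 0.45 and −0.27, Vcan to Dcn −0.28 and −1.43, and Mgp to Dcn 1.30 and −0.85, with adjusted p of 0.122 to 0.157 for the ratios called with all libraries.

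With the replicate block, which the numbers do not support as a pairing (no comparison had all 4 same-numbered pairs correlated above 0.1), the counts were 2, 5, 1, 2, 6 and 1, as without it. The ratios kept their values (0.82, −0.82, 0.82, −0.26, −1.59, 1.14 and −1.11), with an exact p of 0.125, the smallest that 4 pairs allow, and an adjusted p of 0.196, so no ratio could pass 0.05 there. Placing R4W replicate 2 in R2W changed no call of the 6 genes. Low fragment numbers limit Lum and Ogn in sham.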
